A study of Mus musculus with 8 samples.

Results

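The mouse cochlea carries the auditory nerve, whose trunk is wrapped where it leaves the bone by the leptomeninges, the arachnoid and the pia, and further out by the perineurium. Arachnoid and pial cells form a barrier between cerebrospinal fluid and blood, and are known for transporters that clear organic ions and amino acids, for prostaglandin D synthase, for retinoic acid synthesis and for secreted growth factors and matrix proteins. Perineurial cells ensheathe bundles of nerve fibers with tight junctions and glucose transporters. In RNA taken from a whole cochlea these layers are a small part of the tissue, and the level of their genes reflects both how much of them was taken and how active the genes were.

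The genes described here are 10 genes of arachnoid, pial and perineurial cells, chosen by their symbols from the 47628 named entries of the count tables: *Ptgds*, *Slc6a13*, *Slc6a20a*, *Slc47a1*, *Slc22a6*, *Aldh1a2*, *Igf2*, *Dcn*, *Slc2a3* and *Itih5*. They were listed as genes of cells that could be a source of *Fxyd1* and *Angptl7* RNA, and the list does not assign each gene to 1 of the layers. All 10 were found in every library and all 10 passed the filter on low counts, as did 19366 genes in all. No member had fewer than 451 counts in any mouse.

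RNA of isolated cochleae was sequenced from 4 WT mice, animals 4, 5, 6 and 8, and 4 *Opa1*+/- littermates, animals 2 and 7 and those titled Het_484 and Het_491, at 21 days of age. The *Opa1*+/- mice are heterozygous for a knock-in of a human *OPA1* deletion (delTTAG) in every tissue, on a mixed C57BL/6J and 129Sv/Pas background. The comparison asks which cochlear transcripts differ between the genotypes at an early age, and for these 10 genes whether meningeal and perineurial RNA differed. Counts on named genes ranged from 15978051 to 20828030 per mouse. *Opa1* stood between 111.7 and 125.9 CPM (counts per 1000000 counts of the scaled library) in WT and between 60.4 and 70.0 CPM in *Opa1*+/- mice (edgeR's quasi-likelihood test, adjusted p = 0.00515) and was lower in each *Opa1*+/- mouse than in each WT mouse. In WT mouse 6 most meningeal genes stood above the level of every other library, so each result is given with and without that mouse where it matters.

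No member passed the adjusted threshold between the genotypes. At an adjusted p under 0.05, edgeR's quasi-likelihood test called 0 of the 10 members, where it called 0.0258% of all genes tested. DESeq2's Wald test also called 0 of 10, against 0.119% of all genes. Without adjustment, 0 of 10 members had a p under 0.05 in either tool, against 6.72% of all genes in edgeR and 5.61% in DESeq2. In 0 of 10 were the 4 *Opa1*+/- mice all above or all below the 4 WT mice, a separation seen in 4.31% of all genes. The median log2 fold change of the members, *Opa1*+/- over WT, was -0.08, beside 3.95e-04 over all genes tested. It was 0.06 without WT mouse 6, so the direction of this median rested on that mouse.

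The levels of several members varied together from mouse to mouse, and the sequence in front of these is given first. *Ptgds*, *Slc6a13*, *Slc6a20a*, *Slc22a6*, *Aldh1a2* and *Igf2* were grouped in this way after their values were seen. RefSeq promoter sequences on GRCm38.p6, 250 bases before to 50 bases after an annotated start, were matched for 7 of the 10 members, with 3 starts listed for *Slc6a13* and 4 for *Igf2*. *Slc47a1*, *Dcn* and *Slc2a3* were not matched. The promoters of 5 of the co-varying genes are shown, for *Slc6a13* that of the start nearest the beginning of the gene, so that genes with like levels across mice can be set beside each other. *Igf2* is not shown because none of its 4 starts could be preferred. Capitals mark matches, on either strand, to TATAAA (the TATA box), GGGCGG (the GC box), CCAAT (the CCAAT box), TAAACA (a forkhead core) or CACGTG (an E-box).
Ptgds, chr2:25469700-25469999, minus strand: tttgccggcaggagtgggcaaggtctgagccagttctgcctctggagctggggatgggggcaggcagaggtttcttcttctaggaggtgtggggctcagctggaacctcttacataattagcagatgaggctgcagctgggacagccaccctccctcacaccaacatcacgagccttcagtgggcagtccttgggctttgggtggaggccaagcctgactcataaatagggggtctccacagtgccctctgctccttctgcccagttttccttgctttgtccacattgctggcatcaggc
Slc6a13, chr6:121300038-121300337, plus strand: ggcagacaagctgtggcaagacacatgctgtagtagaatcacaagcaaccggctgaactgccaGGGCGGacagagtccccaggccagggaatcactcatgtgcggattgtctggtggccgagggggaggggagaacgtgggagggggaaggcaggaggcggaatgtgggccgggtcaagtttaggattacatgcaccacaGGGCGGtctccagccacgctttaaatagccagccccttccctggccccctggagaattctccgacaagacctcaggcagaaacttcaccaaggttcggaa
Slc6a20a, chr9:123678783-123679082, minus strand: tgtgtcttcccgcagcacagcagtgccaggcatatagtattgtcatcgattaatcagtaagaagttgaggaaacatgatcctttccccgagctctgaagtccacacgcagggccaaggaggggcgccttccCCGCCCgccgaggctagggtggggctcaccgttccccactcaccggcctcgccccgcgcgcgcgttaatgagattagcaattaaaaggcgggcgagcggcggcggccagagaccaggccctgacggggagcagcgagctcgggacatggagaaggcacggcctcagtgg
Slc22a6, chr19:8617746-8618045, plus strand: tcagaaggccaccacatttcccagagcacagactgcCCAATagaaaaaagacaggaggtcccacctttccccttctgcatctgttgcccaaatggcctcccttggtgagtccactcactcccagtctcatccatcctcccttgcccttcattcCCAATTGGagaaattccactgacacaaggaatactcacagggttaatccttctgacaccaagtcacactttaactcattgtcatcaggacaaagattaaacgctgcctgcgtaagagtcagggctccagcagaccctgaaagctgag
Aldh1a2, chr9:71215539-71215838, plus strand: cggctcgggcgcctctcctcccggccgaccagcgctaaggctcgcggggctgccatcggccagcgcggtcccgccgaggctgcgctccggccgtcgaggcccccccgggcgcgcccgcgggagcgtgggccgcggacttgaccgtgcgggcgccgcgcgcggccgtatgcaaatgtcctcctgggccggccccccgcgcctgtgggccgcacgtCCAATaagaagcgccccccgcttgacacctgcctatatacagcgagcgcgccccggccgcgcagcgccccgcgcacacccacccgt
No motif was shared by the 5 promoters shown, and the matches depend on the start taken. The *Ptgds* promoter held 0 of the 5 motifs. The GC box stood in those of *Slc6a13* and *Slc6a20a*, as in 35.7% of all 32851 promoters. The CCAAT box was in those of *Slc22a6* and *Aldh1a2*, as in 37.4% of all, and in *Slc22a6* a forward and a reverse match overlap in CCAATTGG. The TATA box, the forkhead core and the E-box, present in 13.6%, 13.4% and 7.15% of all promoters, were in none of the 5. The other 2 *Slc6a13* starts held a CCAAT box and no GC box, and of the *Igf2* starts 1 held a GC box, 1 held both and 2 held neither. GC content ran from 50% in *Slc22a6* to 78% in *Aldh1a2*. A match is a description of letters in this window and not a site of binding.

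*Ptgds* encodes lipocalin-type prostaglandin D synthase, a protein secreted into the cerebrospinal fluid. The gene lies on chromosome 2 of GRCm38 from 25466709 to 25470046, on the minus strand. The level was 7282, 6030, 13686 and 9700 CPM in WT mice 4, 5, 6 and 8, and 7432, 9329, 9852 and 11395 CPM in *Opa1*+/- mice 2, 7, Het_484 and Het_491. WT mouse 6 was the highest of the 8 and WT mouse 5 the lowest, and the *Opa1*+/- mice lay within the WT range. The means were 9175 ± 3372 CPM (SD, n = 4) for WT and 9502 ± 1635 CPM (SD, n = 4) for *Opa1*+/- mice. Between the genotypes the log2 fold change was 0.05 with a 95% interval from -0.48 to 0.58 (edgeR adjusted p = 0.975). In the absence of WT mouse 6 it was 0.31 (edgeR adjusted p = 0.678).

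The other enzyme among the members is *Aldh1a2*, retinaldehyde dehydrogenase 2, which makes retinoic acid. It lies on chromosome 9 from 71215789 to 71296243. Its level was 76.0, 55.4, 114.5 and 68.6 CPM in WT mice 4, 5, 6 and 8, and 64.4, 78.7, 55.3 and 77.1 CPM in the 4 *Opa1*+/- mice in order of animal number. Here too WT mouse 6 stood alone, 1.51 times the next WT mouse. This gave a log2 fold change of -0.19 (95% interval -0.65 to 0.27, edgeR adjusted p = 0.881), and 0.05 without WT mouse 6.

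Transporters of amino acids and organic ions, which move small molecules across barrier cells, are encoded by 4 members, of which 3 co-varied. *Slc6a13* encodes a plasma membrane transporter of GABA and taurine and lies on chromosome 6 from 121300227 to 121337733. It was at 51.0, 38.9, 78.0 and 51.9 CPM in WT mice 4, 5, 6 and 8 and at 48.3, 56.3, 49.0 and 64.7 CPM in *Opa1*+/- mice. The means, 54.9 ± 16.5 CPM and 54.6 ± 7.64 CPM (SD, n = 4 each), lay within the spread between mice (log2 fold change -0.01, 95% interval -0.43 to 0.42, edgeR adjusted p = 0.996). Without WT mouse 6 the log2 fold change was 0.21 (edgeR adjusted p = 0.689).

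*Slc6a20a*, a sodium-dependent transporter of proline and related imino acids on chromosome 9 from 123634770 to 123678885, had the lowest log2 fold change of the members. Its level was 63.1, 45.8, 100.6 and 68.4 CPM in the WT group and 53.3, 69.3, 42.2 and 54.7 CPM in *Opa1*+/- mice. *Opa1*+/- mouse Het_484 was the lowest and WT mouse 6 the highest. The log2 fold change was -0.34 (95% interval -0.84 to 0.17, edgeR adjusted p = 0.790) and shrank to -0.11 without WT mouse 6. Its near copy *Slc6a20b*, which matches it at 93.9% of 1044 aligned bases with an identical run of 321 bases, longer than a read of 80 bases, varied likewise, from 7.42 CPM in WT mouse 5 to 16.6 CPM in WT mouse 6. Reads could have been split between these genes.

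*Slc22a6* encodes the organic anion transporter OAT1 and lies on chromosome 19 from 8618039 to 8628299. The level was 34.0, 24.1, 56.6 and 35.1 CPM in the WT group and 31.0, 36.1, 27.9 and 39.9 CPM in *Opa1*+/- mice. WT mouse 6 had 1.61 times the level of the next WT mouse, and WT mouse 5 the lowest level of the 8. edgeR gave a log2 fold change of -0.15 (95% interval -0.66 to 0.36, edgeR adjusted p = 0.919), and 0.12 without WT mouse 6.

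The remaining transporter of this kind, *Slc47a1*, encodes MATE1, an exchanger of organic cations for protons, on chromosome 11 from 61343401 to 61378345. It did not share the pattern of WT mouse 6. Its level was 72.3, 69.9, 67.8 and 74.1 CPM in WT mice, WT mouse 6 being the lowest of them, and 69.8, 75.7, 61.1 and 65.5 CPM in *Opa1*+/- mice. The highest WT level was 1.09 times the lowest, where *Slc22a6* had a ratio of 2.35. The estimated log2 fold change was -0.06 (95% interval -0.22 to 0.10, edgeR adjusted p = 0.892).

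*Igf2*, a growth factor of the insulin family that meninges and choroid plexus release, lies on chromosome 7 from 142650766 to 142666816. Of all members it had the highest excess in WT mouse 6, 1.78 times the next WT mouse. The values were 319.0, 242.6, 566.9 and 266.3 CPM in the WT group and 249.5, 329.6, 229.8 and 352.7 CPM in *Opa1*+/- mice. The other 3 WT mice lay within the range of the *Opa1*+/- mice. The fitted log2 fold change was -0.26 (95% interval -0.85 to 0.32, edgeR adjusted p = 0.863), and 0.07 without that mouse. *Gm49394*, an annotated gene on the same strand, matches the *Igf2* transcript at 100% over 3598 bases, and *Igf2os* overlaps it on the other strand at 0.879 to 2.27 CPM.

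**Figure D1:**
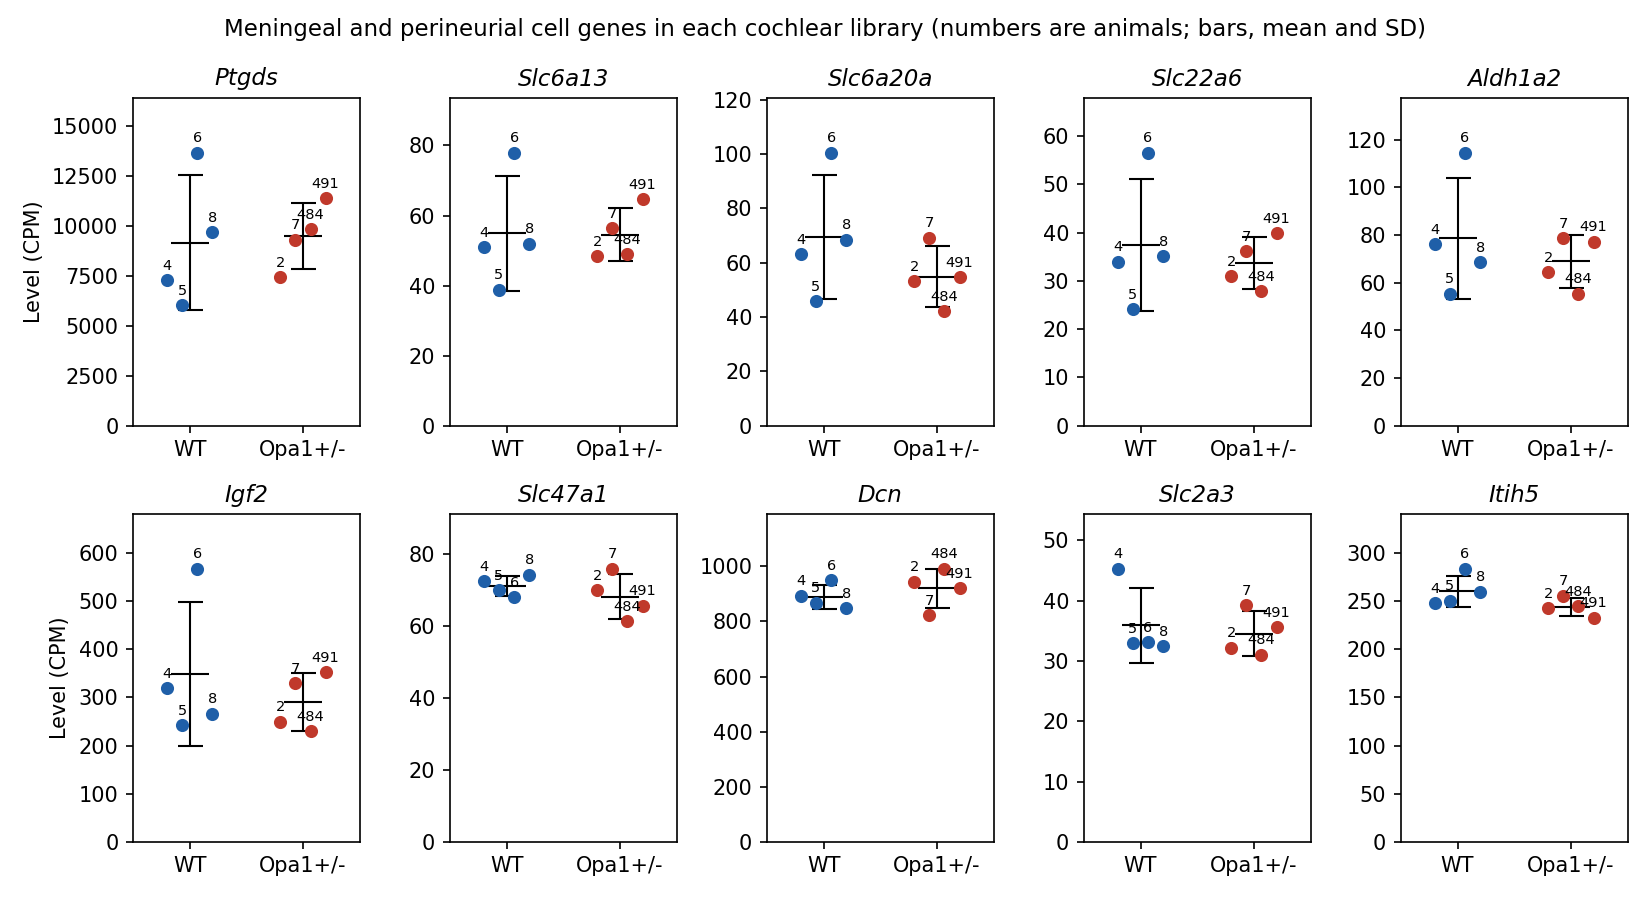
Level of each of the 10 members in each cochlear library, in CPM on linear axes that start at 0, by genotype. Points are mice, labelled by animal number, and bars give the mean and SD of 4 mice. WT mouse 6 is the highest point for *Ptgds*, *Slc6a13*, *Slc6a20a*, *Slc22a6*, *Aldh1a2*, *Igf2* and *Itih5*, and the genotypes overlap for every gene.

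The matrix genes among the members varied little. *Dcn* encodes decorin, a small proteoglycan that binds collagen fibers and is made by fibroblasts of many tissues, and lies on chromosome 10 from 97479609 to 97518143. The level was 894.0, 867.2, 948.8 and 847.8 CPM in the WT group and 943.7, 823.3, 990.7 and 920.9 CPM in *Opa1*+/- mice, so that *Opa1*+/- mice held both the lowest and the highest level. Between the genotypes the log2 fold change was 0.05 (95% interval -0.11 to 0.21, edgeR adjusted p = 0.918), and 0.08 without WT mouse 6.

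*Itih5*, a heavy chain of the inter-alpha-trypsin inhibitor family, whose proteins bind hyaluronan, lies on chromosome 2 from 10153571 to 10256529. Its level was 247.9, 250.3, 283.6 and 259.7 CPM in the WT group and 242.7, 255.9, 244.9 and 233.0 CPM in *Opa1*+/- mice. WT mouse 6 was again the highest, 1.09 times the next WT mouse. This gave a log2 fold change of -0.09 (95% interval -0.24 to 0.05, edgeR adjusted p = 0.796), and -0.05 without WT mouse 6.

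*Slc2a3* encodes the glucose transporter GLUT3, best known from neurons, and lies on chromosome 6 from 122727809 to 122801640. It was at 45.3 CPM in WT mouse 4 and at 32.9, 33.1 and 32.5 CPM in WT mice 5, 6 and 8. The *Opa1*+/- mice had 32.2, 39.3, 31.0 and 35.6 CPM. WT mouse 4 was the highest and not WT mouse 6. The log2 fold change was -0.06 (95% interval -0.33 to 0.22, edgeR adjusted p = 0.944), 0.08 without WT mouse 4 and -0.09 without WT mouse 6.

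**Figure D2:**
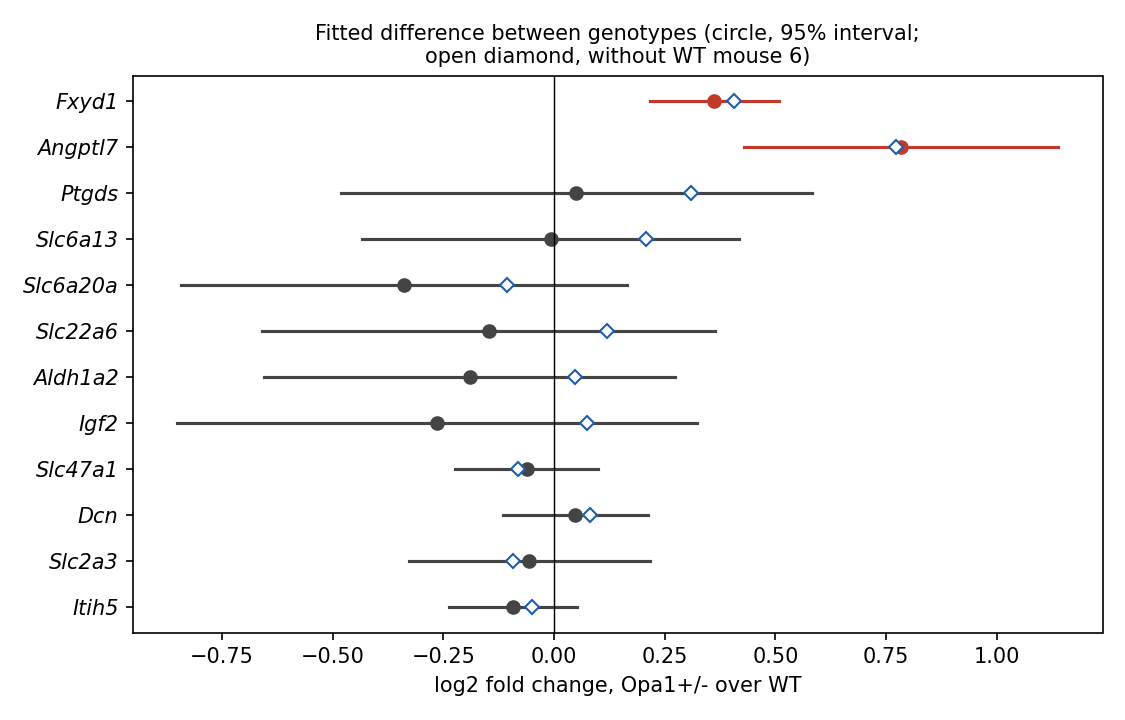
Fitted log2 fold change, *Opa1*+/- over WT, of the 10 members and of *Fxyd1* and *Angptl7*, from edgeR. Circles and lines give the estimate and its 95% interval, open diamonds the estimate without WT mouse 6. The intervals of all 10 members include 0, and among the members the diamond lies to the right of the circle for all but *Slc47a1* and *Slc2a3*.

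Levels of different genes were compared per kilobase of annotated exon. *Ptgds* led with 5663 ± 1491 CPM per kilobase (SD, n = 8), followed by *Dcn* with 154.9 ± 9.72 and *Igf2* with 55.8 ± 19.2 CPM per kilobase. *Aldh1a2* (32.6 ± 8.34), *Itih5* (31.9 ± 1.91), *Slc47a1* (20.6 ± 1.40), *Slc6a13* (18.9 ± 4.09), *Slc6a20a* (15.2 ± 4.50), *Slc22a6* (8.93 ± 2.46) and *Slc2a3* (4.86 ± 0.663 CPM per kilobase) came after. Neighbours in this order had ranges over the 8 mice that did not overlap between *Ptgds* and *Dcn*, between *Dcn* and *Igf2*, and between *Itih5* and *Slc47a1*. The other 6 neighbouring pairs overlapped. With the longest transcript in place of all exons, *Slc6a13* and *Slc47a1* exchanged places. *Ptgds* made up between 78.8% and 86.1% of the summed CPM of the 10 members in each mouse.

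**Figure D3:**
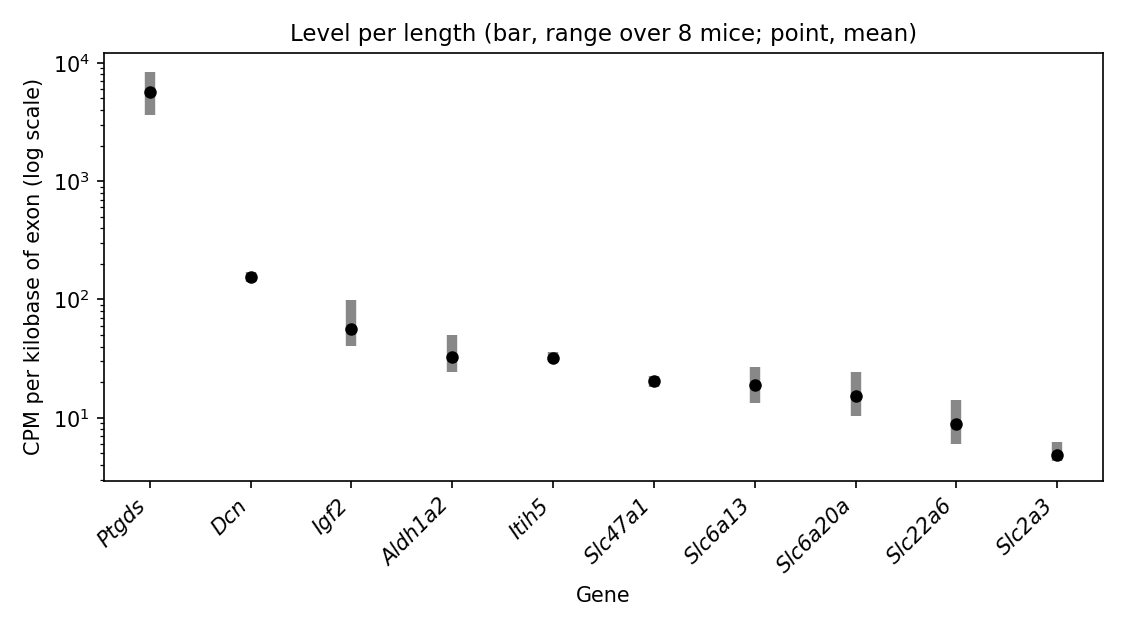
Level of each member per kilobase of exon, in CPM per kilobase on a log axis. Points are means and bars the range over the 8 mice, in falling order of the mean. *Ptgds* at 5663 CPM per kilobase stands above all others, and *Dcn* at 154.9 CPM per kilobase is the second.

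Summed over the 10 members, the level was 9084, 7657, 15936 and 11405 CPM in WT mice 4, 5, 6 and 8, and 9167, 11093, 11584 and 13239 CPM in *Opa1*+/- mice 2, 7, Het_484 and Het_491. The means stood in a ratio of 1.02, *Opa1*+/- over WT, and of 1.20 without WT mouse 6. Without *Ptgds* the sum of the other 9 was 1846 ± 279 CPM (SD, n = 4) for WT and 1769 ± 52.2 CPM (SD, n = 4) for *Opa1*+/- mice, a ratio of 0.958 that turned to 1.03 without WT mouse 6. Since the libraries are from bulk tissue, fewer cells of a type and less RNA per cell cannot be told apart in any of these values.

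The variation of the members between mice was then compared. For this, the mean of each genotype was subtracted from log2 CPM and Pearson's r was computed over the 8 mice, as a description. All 15 pairs among *Ptgds*, *Slc6a13*, *Slc6a20a*, *Slc22a6*, *Aldh1a2* and *Igf2* had an r of at least 0.72, with a median of 0.92. The closest pair was *Slc6a13* and *Slc22a6*, at 0.99. By ranks, Spearman's rho for these pairs ran from 0.57 to 0.98. WT mouse 6 carried part of this: without it all 15 pairs were still positive, with a median r of 0.83 and a lowest r of 0.40.

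*Slc47a1*, *Dcn*, *Slc2a3* and *Itih5* had lower values with those 6 genes over the 8 mice, a division that rested in part on WT mouse 6. The 24 pairs of these with a co-varying gene had a median r of 0.18 and ran from -0.27 to 0.76, the highest values being those of *Itih5* (0.60 to 0.76). Without WT mouse 6 the 24 pairs ran from -0.73 to 0.85 with a median of 0.04, and those of *Itih5* from -0.18 to 0.45. The highest were then *Slc47a1* with *Slc6a20a* (0.85) and *Slc2a3* with *Igf2* (0.80) and with *Aldh1a2* (0.78), above the lowest of the 15 pairs. *Slc47a1* and *Dcn* moved against each other, with an r of -0.87 over the 8 mice and -0.86 without WT mouse 6. Of all 45 pairs, 37 had a positive r, 36 without subtracting the genotype means and 31 without WT mouse 6. All pairs share the same 8 libraries, and CPM values within a library are not independent.

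**Figure D4:**
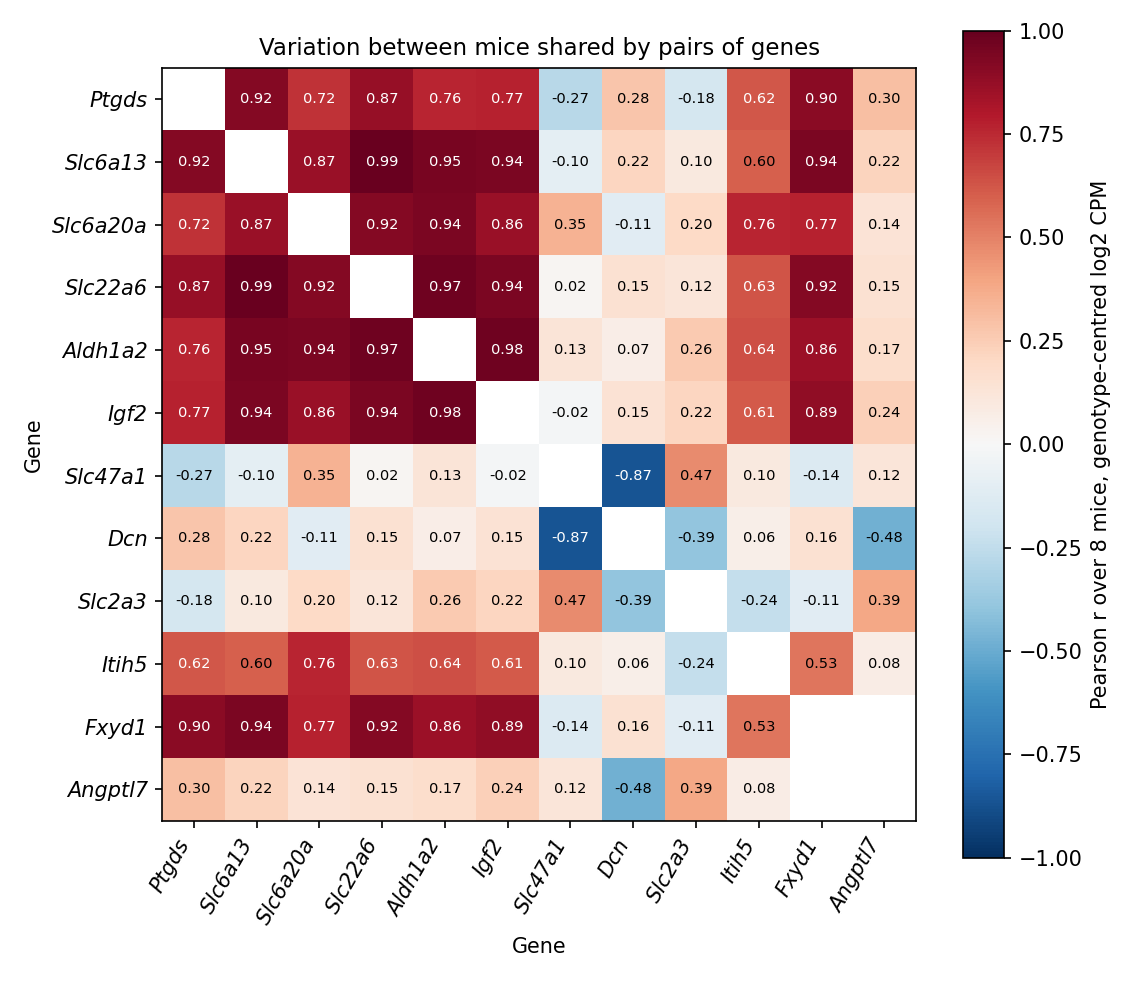
Pearson's r over 8 mice, on genotype-centred log2 CPM, for each pair of members and for each member with *Fxyd1* and with *Angptl7*. Red is positive, blue negative, and white squares were not computed. The upper left block of 6 genes ranges from 0.72 to 0.99, *Fxyd1* follows these genes with 0.77 to 0.94, and *Angptl7* stays between -0.48 and 0.39.

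The genes most like *Slc6a13*, *Slc6a20a*, *Slc47a1*, *Slc22a6*, *Aldh1a2* and *Igf2* in their mean pattern over the 8 mice were sought among 13925 genes with a mean of at least 5 CPM. This set holds *Slc47a1* and not *Ptgds*, and so differs from the 6 co-varying genes above. *Nnat* (r = 0.99) and *Slc13a3* (r = 0.99), a sodium-dependent dicarboxylate transporter, came first, and *Ggt7*, *Fam118a*, *Dclre1b*, *Vtn*, *Nkd2*, *Zbtb42*, *Snx19* and *Slc7a11* followed with r down to 0.97. Without WT mouse 6 all 10 still had an r of at least 0.93. *Nnat* stood at 422.3, 283.9, 678.0 and 406.3 CPM in the WT group and 404.1, 475.1, 310.4 and 468.6 CPM in *Opa1*+/- mice. *Vtn*, which encodes the matrix protein vitronectin, had the highest ratio of these 10 genes between the WT mice, 3.19, from 35.7 to 113.9 CPM. *Slc7a11*, the cystine and glutamate exchanger, ranged from 66.0 CPM in *Opa1*+/- mouse Het_484 to 129.7 CPM in WT mouse 6. An r of at least 0.9 was found for 89 genes, 0.639% of those compared, and an r of at most -0.9 for 23 genes.

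Some neighbours on the chromosome that belong to the same transporter families also varied with the members. *Slc6a12*, the betaine and GABA transporter, starts beyond the end of *Slc6a13* on chromosome 6, at 121343076, and ranged from 13.5 CPM in WT mouse 5 to 28.1 CPM in WT mouse 6. Its likeness to the mean pattern was 0.90, and 0.81 without WT mouse 6. *Slc22a8*, the organic anion transporter OAT3, lies before *Slc22a6* on chromosome 19, from 8591254 to 8611835, and ranged from 21.7 to 71.0 CPM in the same mice (r = 0.95, and 0.92 without WT mouse 6). For *Slc6a20b* the value was 0.94. *H19*, which neighbours *Igf2*, had an r of 0.36, and -0.32 without WT mouse 6. *Slc47a2*, which lies beside *Slc47a1* on chromosome 11 from 61301631 to 61342860, was at a mean of 3.06 CPM, under the minimum of this comparison, and was highest in *Opa1*+/- mouse 2 with 4.26 CPM. These neighbours, other than the near copies *Slc6a20b* and *Slc6a12*, were picked after their values were seen. *Slc6a12* matches *Slc6a13* at 76.5% of 1552 aligned bases with an identical run of 53 bases, shorter than a read.

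A further 16 leptomeningeal markers, none of them a member, were all detected and all tested. In 14 of the 16 the highest of the 8 mice was WT mouse 6, a count whose share over all genes was not computed. The same mouse was highest for 10 of the 14 genes of the retinoic acid list below and for 0 of 6 Schwann cell genes. The median r of the 16 leptomeningeal markers with the mean pattern was 0.74, and 0.48 without WT mouse 6. Their summed level was 560.5, 594.8, 920.8 and 676.3 CPM in the WT group and 597.1, 662.6, 615.8 and 673.8 CPM in *Opa1*+/- mice. No gene of the list had an adjusted or an unadjusted p under 0.05 in edgeR, and the median log2 fold change was -0.11, with 3 of 16 above 0. Without WT mouse 6 the median was 0.05, with 12 of 16 above 0. The most abundant was *Slc13a4*, a sulfate transporter (149.2 ± 43.2 CPM for WT mice against 133.8 ± 5.85 CPM for *Opa1*+/- mice, n = 4 each, SD). *Cldn11*, a tight junction protein of the arachnoid barrier and of myelin among other tissues, came next (127.6 ± 28.1 and 120.8 ± 8.55 CPM). Their r with the mean pattern was 0.74 and 0.36, and 0.23 and -0.36 without WT mouse 6. Which cells gave the *Cldn11* level was not tested. The lowest p of the list was that of *Dapl1* (log2 fold change -0.38, edgeR adjusted p = 0.790, and -0.11 without WT mouse 6), and next came *Tbx18*, *Zic4* and *Foxc1*, which encode transcription factors.

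Of the 6 perineurial markers, 0 passed the adjusted threshold and 1, *Itgb4*, had an unadjusted p under 0.05 in edgeR, against 6.72% of all genes. *Itgb4*, an integrin subunit that perineurial and Schwann cells share, stood at 55.9, 51.5, 66.7 and 50.9 CPM in the WT group and at 72.4, 61.4, 79.4 and 59.7 CPM in *Opa1*+/- mice. The fitted log2 fold change was 0.28 (standard error, SE, 0.116, edgeR adjusted p = 0.728), and WT mouse 6 lay above 2 of the 4 *Opa1*+/- mice. *Slc2a1*, the glucose transporter GLUT1 of perineurium and of blood vessels, had 127.9 ± 26.6 CPM for WT mice against 120.7 ± 5.56 CPM for *Opa1*+/- mice (n = 4 each, SD). The perineurial sum was 288.3 CPM in WT mouse 6 and between 200.7 and 247.9 CPM in the other 7 mice, and 3 of the 6 genes were highest in WT mouse 6.

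Markers of other cells were set beside these. Central glia of the nerve stump, 8 genes of which 7 were tested, summed to 832.4 CPM in WT mouse 6 and to 423.4 to 564.9 CPM in the other WT mice, and *Opa1*+/- mice ranged from 518.4 to 744.6 CPM. Choroid plexus epithelium, 8 genes of which 7 were tested, summed to 209.6 CPM in WT mouse 6, within the 195.4 to 261.3 CPM of the WT mice. The most abundant gene of this list was *Aqp1*, with a mean of 134.9 CPM over 8 mice. *Kl* (23.5 CPM), *Ttr* (20.9 CPM), *Clic6* (20.3 CPM) and *Kcnj13* (9.60 CPM, means over 8 mice) were detected. *Otx2* (2.48 CPM) and *Slc4a5* (0.622 CPM) were low, and *Folr1* stayed between 0.0490 and 1.31 CPM. These genes were named after their values were seen. The 10 general fibroblast markers summed to 1747 CPM in WT mouse 6, within the 1635 to 1896 CPM of the WT group. The 6 cochlear fibrocyte genes summed to 4724 CPM there, the top of a WT range that began at 3486 CPM, and to between 3684 and 4745 CPM in *Opa1*+/- mice. The part of these cells in the levels of the members was not tested.

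The pathways around the members were described gene by gene from lists, with no test over a list, and neither edgeR nor DESeq2 called any gene of these lists after adjustment. For the counts below, the share of all genes with an unadjusted p under 0.05 in edgeR was 6.72%. Of the genes around *Ptgds* that make, break down or sense prostaglandin D2, 7 were listed and 6 tested, all 6 had a log2 fold change below 0 (4 of 6 without WT mouse 6), and 0 passed either threshold in edgeR. The most abundant was *Akr1b3*, a prostaglandin F synthase, with 41.3 ± 2.70 CPM for WT mice against 40.2 ± 1.19 CPM for *Opa1*+/- mice (n = 4 each, SD). *Hpgds*, the hematopoietic prostaglandin D synthase, had the lowest p (log2 fold change -0.29, edgeR adjusted p = 0.849). *Ptgdr*, a receptor gene for its product, was at a mean of 7.11 CPM over the 8 mice.

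Of 14 genes of retinoic acid supply, breakdown and reception around *Aldh1a2*, 11 had a log2 fold change below 0, and 7 without WT mouse 6. An unadjusted p under 0.05 in edgeR was found for 2 of the 14, against 6.72% of all genes, and 0 passed the adjusted threshold. *Rarb*, a retinoic acid receptor whose gene is itself a known target of the pathway, was at 22.4, 19.6, 23.8 and 23.6 CPM in the WT group and 19.1, 18.4, 14.1 and 16.6 CPM in *Opa1*+/- mice. Every *Opa1*+/- mouse lay below every WT mouse, a separation seen in 1 of the 14 and in 4.31% of all genes. The *Rarb* log2 fold change was -0.39 (SE 0.108, edgeR adjusted p = 0.722). *Cyp26b1*, which breaks retinoic acid down, was at 9.02, 4.83, 13.9 and 7.88 CPM in the WT group and 5.44, 5.71, 5.57 and 4.91 CPM in *Opa1*+/- mice, with WT mouse 6 the highest and WT mouse 5 the lowest (log2 fold change -0.71, edgeR adjusted p = 0.722, and -0.42 without WT mouse 6). *Aldh1a1*, another retinaldehyde dehydrogenase, was at a mean of 110.8 CPM over the 8 mice.

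In the insulin-like growth factor axis 15 genes were listed and 13 tested, 5 with a log2 fold change above 0 and 8 below, which became 8 above and 5 below without WT mouse 6. *H19*, the noncoding RNA of the imprinted region shared with *Igf2*, had the lowest p, which was under 0.05 before adjustment in edgeR. The level was 24.2, 28.6, 34.1 and 25.4 CPM in the WT group and 34.1, 40.8, 37.1 and 30.4 CPM in *Opa1*+/- mice, overlapping groups with a log2 fold change of 0.34 (SE 0.122, edgeR adjusted p = 0.722). The binding protein genes *Igfbp5* (1316 CPM) and *Igfbp4* (300.2 CPM, means over 8 mice) were the most abundant, with log2 fold changes of -0.02 and -0.01. *Insr* (-0.16) and *Igf1r* (-0.11), which encode receptors, did not pass either threshold.

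The organic ion transporters and barrier pumps around *Slc22a6* and *Slc47a1* numbered 12, of which 11 were tested. *Slco1a4*, an organic anion transporter of barrier cells, was at 55.5, 67.0, 71.5 and 61.5 CPM in the WT group and 52.0, 57.6, 48.0 and 43.9 CPM in *Opa1*+/- mice, and alone had an unadjusted p under 0.05 in edgeR (log2 fold change -0.34, SE 0.101, adjusted p = 0.722). Among 10 facilitative glucose transporters around *Slc2a3*, of which 9 were tested, *Slc2a13*, which carries myo-inositol, had an unadjusted p under 0.05 (log2 fold change -0.36, edgeR adjusted p = 0.722). Its level was 17.3 ± 1.15 CPM for WT mice against 13.4 ± 2.76 CPM for *Opa1*+/- mice (n = 4 each, SD), with *Opa1*+/- mouse 7 above 3 of the 4 WT mice. The 6 relatives of *Slc6a13*, the 11 small leucine-rich proteoglycans around *Dcn* and the 6 tested genes of the inter-alpha-trypsin and hyaluronan list around *Itih5* held 0 genes with an unadjusted p under 0.05. Their median log2 fold changes were -0.04, 0.02 and -0.05 (0.11, 0.05 and -0.03 without WT mouse 6), and the abundant *Bgn*, *Ogn*, *Itih2* and *Slc6a6* were among them.

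*Fxyd1* encodes phospholemman, a small regulator of the sodium pump, and *Angptl7* a secreted protein of the angiopoietin-like family. The study counted both among the genes that differed between the genotypes in these same libraries. Their separation here follows from that choice and is no separate support for it. For *Fxyd1*, WT mice 4, 5, 6 and 8 had 93.2, 92.5, 106.3 and 97.3 CPM, whereas *Opa1*+/- mice 2, 7, Het_484 and Het_491 had 121.4, 125.3, 120.8 and 132.8 CPM. The WT mice were all below the *Opa1*+/- mice, WT mouse 6 included, and WT mouse 6 was the highest of the 8 for *Slc6a13*. The *Fxyd1* log2 fold change was 0.36 (SE 0.0650, edgeR adjusted p = 0.320, DESeq2 adjusted p = 8.36e-04).

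The variation of *Fxyd1* within genotypes was set against that of the members. Over 20 relations, the 10 members with *Fxyd1* and with *Angptl7*, an exact two-sided permutation test within genotypes (576 arrangements) with Benjamini-Hochberg adjustment passed 2 for Pearson's r. These were *Slc6a13* (r = 0.94, p = 0.00347, adjusted p = 0.0347) and *Slc22a6* (r = 0.92, p = 0.00174, adjusted p = 0.0347, the same exact test). Spearman's rho was 0.90 (adjusted p = 0.104) and 0.93 (adjusted p = 0.0694) in the same exact permutation test, and 0 of 20 passed by rho. Without the 2 mice farthest from the median of the member, WT mice 6 and 5, r was 0.93 for *Slc6a13* and 0.89 for *Slc22a6*. Without WT mouse 6 alone it was 0.84 and 0.79, and from 0.48 to 0.84 over the 6 co-varying members. *Ptgds* (r = 0.90), *Igf2* (0.89), *Aldh1a2* (0.86) and *Slc6a20a* (0.77) did not pass, and without their 2 farthest mice *Igf2* and *Slc6a20a* fell to 0.45 and 0.41. When genotype means were not subtracted, r was 0.37 with *Slc6a13* and 0.19 with *Slc22a6*. Over the 6 co-varying members it then ran from -0.14 (*Slc6a20a*) to 0.45 (*Ptgds*).

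The difference in *Fxyd1* between genotypes was also fitted with the members taken into account. With the mean level of *Slc6a13*, *Slc6a20a*, *Slc47a1*, *Slc22a6*, *Aldh1a2* and *Igf2* as a covariate, an alternative chosen after the data were seen, its log2 fold change was 0.40 (SE 0.0586, edgeR adjusted p = 0.184). In the fit with no covariate it was 0.41 without WT mouse 6. *Fxyd1* ranked 271 among the 13925 genes in likeness to the mean pattern of these genes (r = 0.84), and 1042 without WT mouse 6 (r = 0.68).

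The same relations were computed for *Angptl7*. It was at 7.65, 7.57, 7.35 and 7.64 CPM in WT mice, WT mouse 6 being the lowest, and at 8.99, 15.7, 13.1 and 14.2 CPM in *Opa1*+/- mice. Its r with the co-varying members ran from 0.14 to 0.30, and the smallest p of its 10 relations in the exact permutation test was 0.297. The correlations with the co-varying members were between 0.28 and 0.55 without WT mouse 6, and between 0.34 and 0.66 without the 2 mice farthest from the median of each member. The *Angptl7* log2 fold change was 0.78 (SE 0.158, edgeR adjusted p = 0.582, DESeq2 adjusted p = 0.0114), and 0.81 (SE 0.166, edgeR adjusted p = 0.737) with the same mean level as a covariate. It ranked 4860 in likeness to the mean pattern (r = 0.21), and 3025 without WT mouse 6 (r = 0.40). The WT mice spanned a ratio of 1.04 for *Angptl7*, where they spanned 2.01 for *Slc6a13* and 2.34 for *Igf2*. The *Opa1*+/- mice spanned 1.75 for *Angptl7*, 1.34 for *Slc6a13* and 1.53 for *Igf2*. *Angptl7* had 123 to 314 counts per mouse, against 792 to 1305 for *Slc6a13*. At such counts its narrow WT span cannot be read as steady expression.

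**Figure D5:**
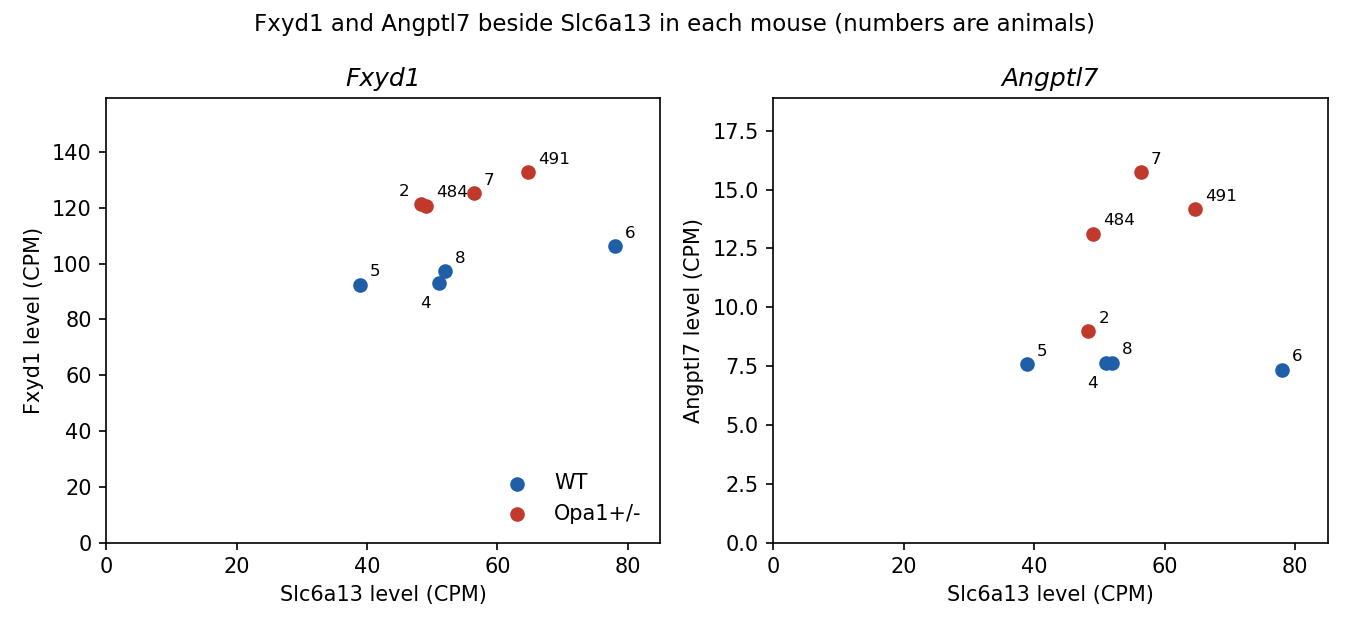
*Fxyd1* (left) and *Angptl7* (right) against *Slc6a13*, in CPM on linear axes that start at 0. Points are mice, blue WT and red *Opa1*+/-, labelled by animal number. WT mouse 6, with 78.0 CPM of *Slc6a13*, has 106.3 CPM of *Fxyd1* and 7.35 CPM of *Angptl7*, below all *Opa1*+/- mice in both.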

How the data were processed

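The study sequenced cochlear RNA of 8 mice from CORALL libraries as paired reads of 80 bases, removed adapters, aligned them by STAR to GRCm38 and corrected for amplification with molecular identifiers. The authors deposited raw counts, 1 table per mouse with 1 whole number for every gene symbol, not normalized. The study names the CORALL Data Analysis Pipeline. Which program counted the reads in it, and whether strand was used, is not given in the sources used here, so counts are uncertain for overlapping genes, for genes facing each other on opposite strands (*Angptl7* lies within *Mtor*, and *Slc6a20a* overlaps *Ccr9*) and for near copies. Entries labelled by a number, 15 in all and 0.112% to 0.124% of counts, were left out. The depth per mouse, 15978051 to 20828030 counts, gave each member at least 451 counts, so that the spread between mice and not counting set the precision.

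Genes with a mean DESeq2-normalized count over 10 were tested, 19366 in all, with edgeR 4.0.16's quasi-likelihood test on TMM-scaled library sizes, without covariates, and Benjamini-Hochberg adjustment at 0.05. DESeq2 1.42.0 (Wald test, default settings) was run beside it. Levels are CPM, with TMM factors. Likeness between genes used log2 CPM with a prior count of 2. Mice carry separate animal numbers, and a p-value measures the spread between animals. The alternatives were DESeq2 size factors, no TMM factors, DESeq2, limma 3.58.1 voom with quality weights, no filter, filterByExpr, each mouse left out, both *Opa1*+/- mice with 3-digit numbers left out, the same with WT mouse 4, and the first surrogate variable of sva 3.50.0. Near copies were sought with blastn 2.17.0 (alignments of at least 500 bases) and positions taken from GENCODE vM21. The edgeR and voom fits were tested on simulated data. Scripts ran in R 4.3.3 and in Python 3.11.15 with matplotlib 3.10.9.

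The members and all gene lists were chosen with earlier results of these data known. The genes named are the 10 members, *Fxyd1*, *Angptl7*, *Opa1*, near copies, the 10 genes most like the members, and from each list the genes past the adjusted threshold, up to 5 with the lowest p and the most abundant 2. Genes named outside this rule are said to be so, and some genes that the rule names are not reported here.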

Additional observations from a re-analysis of the deposited data

Results flagged for a closer look

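*Slc2a3* stood at 45.3 CPM in WT mouse 4 and between 32.5 and 33.1 CPM in the other WT mice, a gap that takes up 0.950 of the range of the group, over the 95% limit of Dixon's test for 4 samples. In the same library the summed level of 7 neutrophil and marrow genes was 1304 CPM, where the other WT mice had 398.1 to 486.4 CPM, with a gap of 0.903 of the range. The *Opa1*+/- mice spanned 31.0 to 39.3 CPM for *Slc2a3* and 412.8 to 1063 CPM for the neutrophil and marrow sum. Whether the 2 values are connected was not tested. WT mouse 6, which was the highest of the 8 mice for 7 of the members, did not pass this limit for any of them. Chance alone would mark about 1 in 20 groups, and 52 groups were examined.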

How the results depend on the processing

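Under all 17 alternatives 0 of the 10 members and 0 of the 160 tested genes of the marker and pathway lists passed the adjusted threshold, in DESeq2 and edgeR with other scalings and filters, voom and the surrogate variable fit alike. The members' median log2 fold change ran from -0.13 to 0.06, the highest without WT mouse 6. Leaving out 1 mouse at a time moved the log2 fold change of *Ptgds* between -0.11 and 0.31, *Slc6a13* between -0.14 and 0.21, *Slc22a6* between -0.31 and 0.12, *Aldh1a2* between -0.33 and 0.048, *Igf2* between -0.40 and 0.074 and *Slc2a3* between -0.12 and 0.075. The upper end of the first 5 came without WT mouse 6 and that of *Slc2a3* without WT mouse 4. The surrogate variable, whose value was -0.89 in WT mouse 6 and between -0.07 and 0.29 in the others, gave 0.19 for *Slc6a13*, 0.10 for *Slc22a6*, 0.020 for *Aldh1a2* and 0.021 for *Igf2*, and voom gave 0.087 for *Slc6a13*. Without both *Opa1*+/- mice with 3-digit numbers *Ptgds* was at -0.13, *Slc47a1* at 0.035 and *Dcn* at -0.0096, and dropping WT mouse 4 too gave -0.23, 0.039 and -0.012, and *Slc2a3* 0.12. Why these 2 settings turned the sign was not tested. *Slc6a20a* and *Itih5* were below 0 under every alternative. *Fxyd1* ranged from 0.32 to 0.41 and *Angptl7* from 0.68 to 0.93, past the adjusted threshold in DESeq2 alone. The narrowest intervals among the members, those of *Slc47a1*, *Dcn* and *Itih5*, reach at most 0.24 from 0 on the log2 scale, while those of the co-varying members reach up to 0.85. No paired analysis was made, because the labels do not give the litter of each mouse.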

Other observations

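Schwann cell genes, which were not members, all had a log2 fold change above 0: 6 of 6, from 0.18 to 0.34, with 0 past the adjusted threshold in edgeR or DESeq2. *Egr2*, a transcription factor of myelinating Schwann cells, had the highest of them (adjusted p = 0.722 from edgeR). With 1 mouse left out at a time, *Egr2* ran from 0.29 to 0.41, *Mbp* from 0.076 to 0.35 and *Pmp22* from 0.094 to 0.31. The 6 erythroid genes ranged from 0.55 to 0.59, also with 0 past the threshold, and their sum ran from 7733 to 21394 CPM in WT and from 15018 to 25011 CPM in *Opa1*+/- mice. Their median log2 fold change was 0.58, and 0.41 without WT mouse 6. Leaving out 1 mouse at a time moved *Hba-a1* between 0.36 and 0.94. Neurons (sums of 3853 to 4642 CPM in WT and 3831 to 4556 CPM in *Opa1*+/- mice), endothelium and pericytes (352.2 to 404.5 and 362.3 to 405.0 CPM) and bone (1806 to 2319 and 1658 to 2039 CPM) overlapped between the genotypes, and in each of these 3 lists 0 genes had an unadjusted p under 0.05. *Mfap5*, a fibroblast matrix gene, had a log2 fold change of 0.47 (adjusted p = 0.722 from edgeR).

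*Ttr*, the transthyretin gene of choroid plexus, was at 69.5 CPM in WT mouse 5 and between 9.08 and 19.4 CPM in the other 7 mice, while WT mouse 5 had the lowest level of the 8 for *Ptgds*, *Slc6a13* and *Slc22a6*. *Dpt* and *Pi16*, genes of other fibroblasts, ran against the mean pattern of *Slc6a13*, *Slc6a20a*, *Slc47a1*, *Slc22a6*, *Aldh1a2* and *Igf2* over the 8 mice, with r of -0.97 and -0.90, and -0.95 and -0.78 without WT mouse 6. The median r of the 10 general fibroblast markers with that pattern was -0.35 (-0.54 without WT mouse 6), and those of *Pdgfra* and *Fbln1* were 0.77 and 0.63, or 0.50 and 0.22 without WT mouse 6. Of the genes in the lists around the members, *Omd* (r = 0.94), *Fmod* (0.93) and *Igfbp2* (0.88) were among those that followed that pattern closely, beside the near copy *Slc6a20b* and *Slc22a8*. *Ttr*, *Dpt*, *Pi16*, *Pdgfra*, *Fbln1*, *Omd*, *Fmod*, *Igfbp2*, *Egr2* and *Mfap5* were picked after their values were seen.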
